A study of Mus musculus with 2 samples.

Results

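The primary granule genes of myeloid progenitors described here are Mpo, Elane, Prtn3 and Ctsg, 4 of the 47729 genes counted. They were matched by gene symbol and are described over all cell barcodes with at least 500 detected genes and at most 10% mitochondrial counts, 3005 barcodes in the MSC coculture library and 1817 in the library without coculture. Both libraries are single-cell RNA sequencing of femur bone marrow from C57BL/6NCrljOri (H-2b) mice, and all cells received 40 ng/mL of the myeloid growth factor GM-CSF during 5 days of culture. In the MSC coculture group, human mesenchymal stem/stromal cells sat in inserts with 0.4 µm pores, seeded 24 h ahead at 1 MSC to 5 bone marrow cells, in DMEM, and the sequenced cells were sorted as CD11b-mid Ly6C-mid. In the group without coculture the medium was RPMI1640 and the sequenced cells were sorted as CD11b-high Ly6C-high. Each group is 1 library, so MSC coculture, medium and sort gate cannot be told apart from each other or from the library itself, and no difference between the groups has a replicate check or a test. The labels do not say how many animals each library came from.

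Primary (azurophil) granules are the first granules that a neutrophil or monocyte precursor makes, at the promyelocyte stage. Myeloperoxidase uses hydrogen peroxide to make hypochlorous acid, while neutrophil elastase, proteinase 3 and cathepsin G are related serine proteases. Their mRNAs are made mainly in promyelocytes and are shut off as secondary granule genes such as Ltf and Camp come on, so they are commonly read as marks of early granulocyte-monocyte precursors.

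The 4 genes lie on 3 chromosomes in mouse build GRCm38. In the GENCODE M21 annotation, Mpo (ENSMUSG00000009350) spans chr11:87793581-87804413 on the plus strand. Prtn3 (ENSMUSG00000057729, chr10:79874476-79883174) and Elane (ENSMUSG00000020125, chr10:79886247-79888215) are neighbours on the plus strand of chromosome 10. Ctsg (ENSMUSG00000040314) spans chr14:56099881-56102574 on the minus strand. Stretches before the RefSeq start of each gene are shown because the genes appear together in some cells and apart in others. They come from the 250 bases before each RefSeq transcription start (GRCm38.p6), without any base that GENCODE M21 places in an exon of the gene, written 5′ to 3′ on the gene's strand, and capitals mark the 7 letters AGGAAGT, a form of the ETS-family core sequence. The Prtn3 stretch lies before its RefSeq start but inside the longer GENCODE span of the gene.
Mpo (chr11:87793534-87793580, plus strand): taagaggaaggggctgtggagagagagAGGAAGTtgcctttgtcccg
Elane (chr10:79886062-79886246, plus strand): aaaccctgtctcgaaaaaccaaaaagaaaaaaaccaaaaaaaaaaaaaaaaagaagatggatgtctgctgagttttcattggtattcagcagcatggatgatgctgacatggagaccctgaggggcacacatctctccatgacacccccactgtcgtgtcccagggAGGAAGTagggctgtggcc
Prtn3 (chr10:79879417-79879613, plus strand): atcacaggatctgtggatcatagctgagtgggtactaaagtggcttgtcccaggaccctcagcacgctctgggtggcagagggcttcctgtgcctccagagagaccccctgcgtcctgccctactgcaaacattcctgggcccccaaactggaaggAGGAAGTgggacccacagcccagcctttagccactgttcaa
Ctsg (chr14:56102575-56102824, minus strand): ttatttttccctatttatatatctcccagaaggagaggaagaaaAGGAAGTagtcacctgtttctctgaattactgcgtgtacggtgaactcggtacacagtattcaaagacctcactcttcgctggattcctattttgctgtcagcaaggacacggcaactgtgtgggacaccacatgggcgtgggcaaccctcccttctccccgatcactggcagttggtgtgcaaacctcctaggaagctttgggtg
Motifs were counted over the uncut 250 bases, part of which is not shown. AGGAAGT stands on the gene's own strand in all 4 windows, in each case within the stretch shown, beginning 223, 84, 94 and 206 bases before the RefSeq start of Mpo, Elane, Prtn3 and Ctsg. Of all 32851 RefSeq windows of 250 bases, 1337 (4.07%) hold it on the gene's strand and 7.69% on either strand. The shorter letters AACNG, a MYB-type core, are in 4 of the 4 windows (2 of the 4 stretches shown, Prtn3 and Ctsg) and in 74.2% of all windows on either strand. The letters TTNNGNAA, a C/EBP-type core, are in 0 of the 4 windows, against 36.8% of all windows. The 4 motifs searched (the last was TATAA, in 3 of the 4 windows, 1 of the 4 stretches shown (Ctsg) and 22.8% of all windows on either strand) were chosen after these sequences had been seen, and a match of letters is a description, not a binding site.

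Over all kept cells, Mpo, Elane, Prtn3 and Ctsg were each higher in the MSC coculture library than in the library without coculture, by 5.94-fold for Prtn3 up to 37.2-fold for Ctsg. Levels are counts of unique molecular identifiers (UMIs, 1 per captured transcript molecule) scaled to a total of 1000000 UMIs (CPM). They are read at transcript 3′ ends, 1 UMI per molecule whatever the gene's length. A sum over a library does not tell more cells with a transcript apart from more transcript per cell. Intervals are exact 95% Poisson intervals for levels and exact (Clopper-Pearson) 95% intervals for shares and ratios, and they cover counting error only, not the spread between cultures or animals. The MSC coculture library held 29089241 UMIs in kept cells, with a median of 6031 UMIs and 1966 genes per cell, and the library without coculture held 27784963 UMIs, with medians of 7016 UMIs and 2124 genes. The rule on genes and mitochondrial counts dropped 4.12% of the MSC coculture barcodes and 16.7% of the barcodes without coculture. Doublets were in effect not removed, since the caller marked 5 MSC coculture cells and 0 cells without coculture, and 2 kept barcodes occur in both libraries.

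Ctsg, which encodes cathepsin G, stood at 557 CPM (549 to 566; 16213 UMIs) in MSC coculture cells, against 14.97 CPM (13.6 to 16.5; 416 UMIs) in cells without coculture. The log2 ratio of the levels was 5.22 (5.08 to 5.36). Elane, the gene of neutrophil elastase, had the highest level of the 4 in MSC coculture cells. It stood at 867 CPM (856 to 877; 25207 UMIs) in MSC coculture cells and at 109 CPM (105 to 113; 3037 UMIs) in cells without coculture, a log2 ratio of 2.99 (2.93 to 3.04). Prtn3, the gene of proteinase 3, stood at 783 CPM (772 to 793; 22763 UMIs) in MSC coculture cells and at 132 CPM (128 to 136; 3661 UMIs) in cells without coculture, a log2 ratio of 2.57 (2.52 to 2.62). In the library without coculture Prtn3 was above Elane, the reverse of their order in the MSC coculture library.

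Mpo had the lowest level of the 4 in both libraries, at 106 CPM (102 to 110; 3084 UMIs) in MSC coculture cells and 8.57 CPM (7.51 to 9.73; 238 UMIs) in cells without coculture. The log2 ratio was 3.63 (3.44 to 3.83). This ratio rests in part on 1 cell without coculture, which carried 161 of that library's 238 Mpo UMIs (67.6%). Without the cell of most Mpo UMIs in each library the log2 ratio was 5.19. All 4 genes passed the floor of 10 CPM in at least 1 library and all 4 were higher by 2-fold or more, with a median log2 ratio of 3.31. Of the 8668 genes that passed the same floor, 12.7% were higher and 11.7% lower by 2-fold or more, with a median of 0.03.

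**Figure D1:**
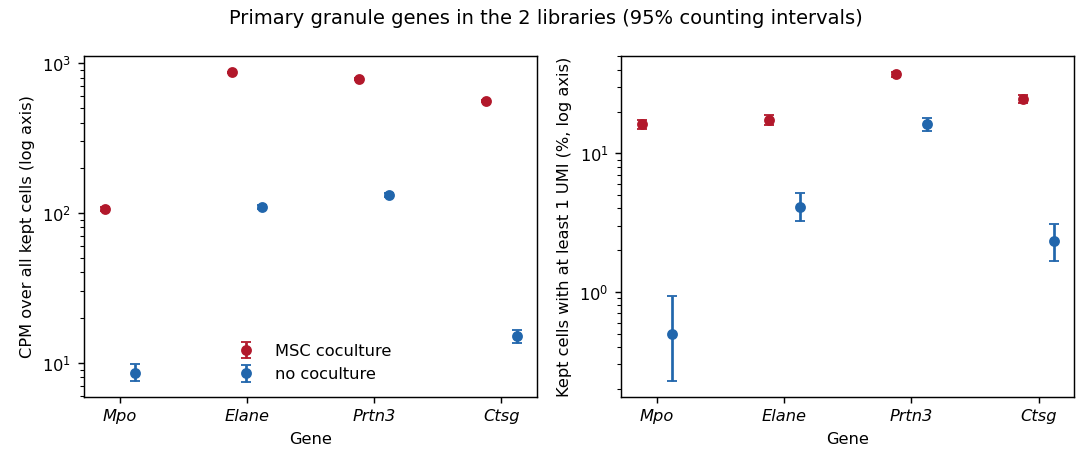
Level of each gene in CPM (left, log axis) and share of kept cells with at least 1 UMI (right, log axis) in the MSC coculture and no coculture libraries, 1 library each, with 95% counting intervals. Every MSC coculture value is above its value without coculture, and the gap in level is widest for Ctsg (557 against 14.97 CPM).

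The genes were also found in a larger share of the MSC coculture cells. Prtn3 had a UMI in 1114 MSC coculture cells (37.1%) and in 295 cells without coculture (16.2%). Ctsg had one in 740 MSC coculture cells (24.6%) and in 42 cells without coculture (2.31%). Elane had one in 522 MSC coculture cells (17.4%) and in 75 cells without coculture (4.13%). For Mpo the count was 485 MSC coculture cells (16.1%; 14.8 to 17.5) and 9 cells without coculture (0.495%; 0.227 to 0.938). With every cell thinned to 2000 UMIs, which left out 265 shallower MSC coculture cells and 140 cells without coculture, the order between libraries was the same for the 4 genes. The thinned shares of MSC coculture cells were 20.8% for Prtn3, 19.0% for Ctsg, 9.27% for Elane and 6.61% for Mpo. Those of cells without coculture were 5.61% for Prtn3, 0.596% for Ctsg, 2.15% for Elane and 0.179% for Mpo.

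Most of the RNA of these genes sat in few cells. In the MSC coculture library the 32 cells with most Elane UMIs held at least 50% of them, and the same took 44 cells for Mpo, 47 for Prtn3 and 95 for Ctsg. In the library without coculture it took 1 cell for Mpo, 4 for Ctsg, 6 for Elane and 11 for Prtn3. All 4 genes were detected together in 309 MSC coculture cells (10.3%; 9.22 to 11.4) and in 6 cells without coculture (0.330%; 0.121 to 0.717). At least 1 of them was detected in 45.5% of MSC coculture cells and 17.0% of cells without coculture.

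To see which cells carried them, both libraries were clustered together with the 4 genes left out, which gave 18 clusters, named by markers where those allowed. The highest levels of all 4 genes in both libraries were in 1 cluster, a granulocyte-monocyte progenitor-like cluster of 145 MSC coculture cells and 31 cells without coculture. Its leading genes were Dmkn, Nkg7, Myl10 and Ptgds, with Gfi1 and Ms4a3 among the first 10. Of the 10 progenitor markers, 6 were 2-fold or more above the remaining cells. In the MSC coculture, Cd34 (65.1 CPM in the cluster, 83.7 over all kept cells) and Sox4 (53.8 and 56.7 CPM) were not higher there. Kit was at 13.4 CPM in the MSC coculture cells of the cluster. Gfi1 encodes a transcription repressor of granulocyte precursors, and 76.8% of its MSC coculture UMIs fell there. The cluster was 4.83% of the kept MSC coculture cells and 1.71% of the kept cells without coculture, shares that the different sort gates can set.

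Within the MSC coculture library, this cluster held 88.5% of Elane UMIs, 76.6% of Prtn3 UMIs and 59.5% of Mpo UMIs, but 40.1% of Ctsg UMIs. It held 9.72% of all UMIs of that library. Elane was at 7894 CPM there, Prtn3 at 6170, Ctsg at 2300 and Mpo at 649 CPM. Prtn3 was detected in 144 of the 145 cells, Elane in 84.8%, Ctsg in 75.2% and Mpo in 74.5%, at a median depth of 18975 UMIs. In the library without coculture the cluster held 92.9% of Mpo UMIs, 84.5% of Elane UMIs, 73.1% of Ctsg UMIs and 62.4% of Prtn3 UMIs. It held 3.14% of all UMIs of that library, so these genes were concentrated in the cluster in both groups.

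**Figure D2:**
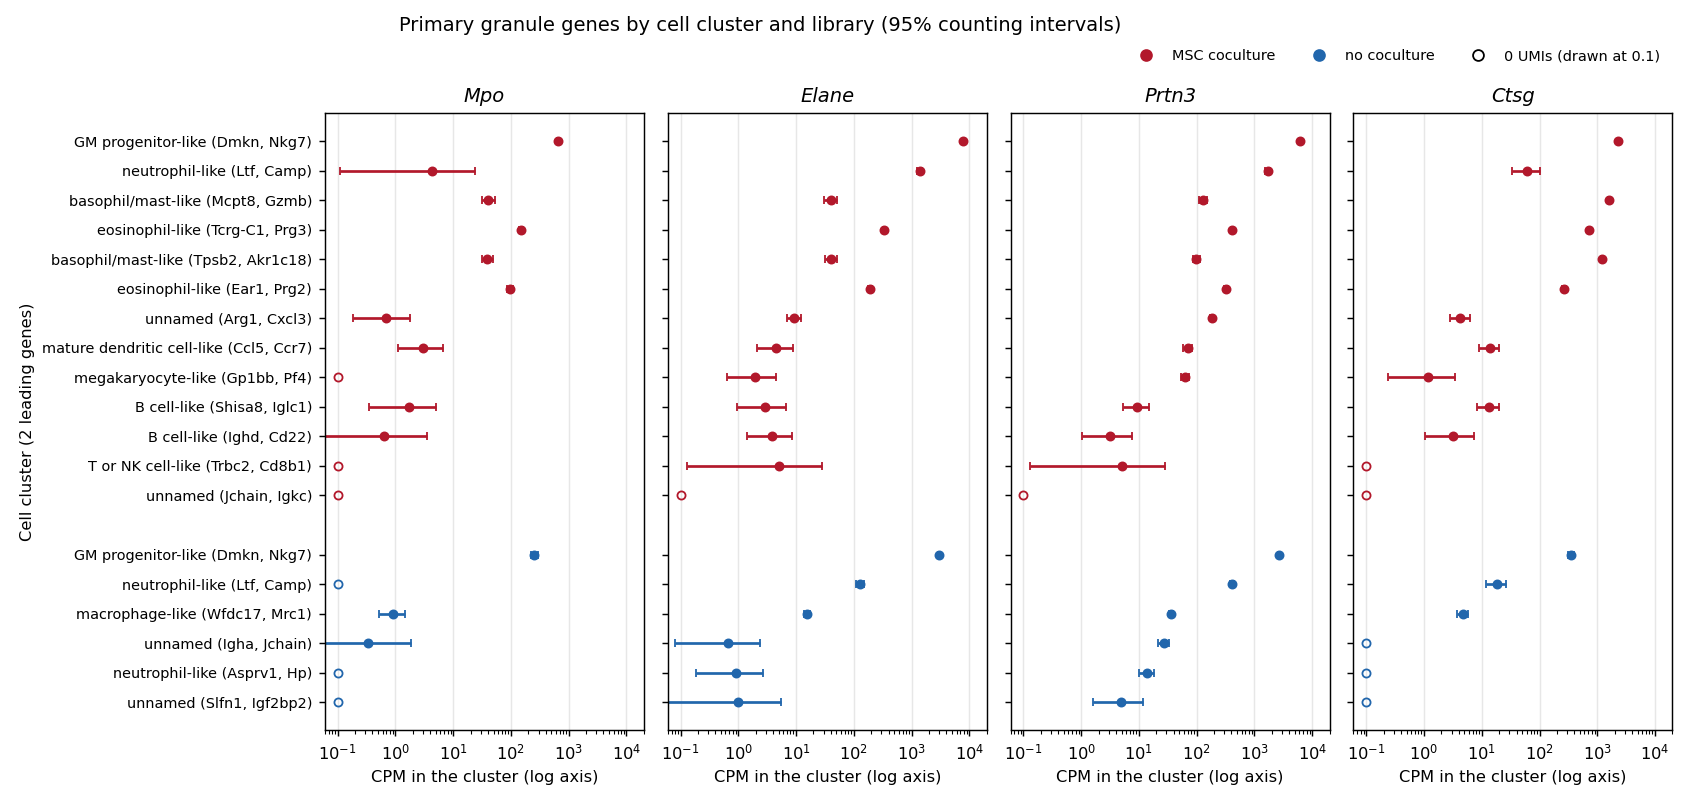
CPM of each gene (log axis, 95% Poisson intervals) in every cluster with at least 20 cells of a library, MSC coculture clusters above and no coculture clusters below, with open points at 0 UMIs. The progenitor-like cluster is highest for all 4 genes in both libraries, while Ctsg alone passes 1000 CPM in both basophil or mast cell-like clusters, at 1598 and 1204 CPM.

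Outside the progenitor-like cluster, the MSC coculture cells carried different members of the group in different cell classes. Ctsg was the main one in the basophil or mast cell-like cells. In the Mcpt8- and Gzmb-led cluster of 94 cells, Ctsg was at 1598 CPM and was detected in 90.4% of cells, with Prtn3 at 129, Elane at 40.5 and Mpo at 40.5 CPM. In the Tpsb2- and Akr1c18-led cluster of 317 cells Ctsg was at 1204 CPM and detected in 60.9%, with Prtn3 at 98.8, Elane at 40.6 and Mpo at 39.1 CPM. Ctsg made up 88.4% and 87.1% of the UMIs of the 4 genes in these clusters, against 13.5% in the MSC coculture progenitor-like cells. Of the 411 basophil or mast cell-like cells, 224 had a Ctsg UMI and none of Elane, and 54 had both. In the 145 progenitor-like cells those counts were 2 and 107.

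Eosinophil-like cells of the MSC coculture carried all 4 genes. In the Tcrg-C1- and Prg3-led cluster of 262 cells, Ctsg was at 725 CPM, Prtn3 at 412, Elane at 332 and Mpo at 150 CPM, and all 4 were detected together in 144 cells (55.0%). In the Ear1- and Prg2-led cluster of 213 cells, the levels were lower, at 266 CPM for Ctsg, 322 for Prtn3, 190 for Elane and 97.1 for Mpo. Mpo was the member for which this class weighed most: the 475 eosinophil-like cells held 35.5% of the library's Mpo UMIs (33.8 to 37.2). They also held 29.4% of Ctsg, 13.8% of Prtn3 and 9.34% of Elane UMIs, and 28.2% of all UMIs of the library. Mpo and Ctsg were thus above, and Prtn3 and Elane below, the class's share of all UMIs. The class was deep, with a median of 17825 UMIs per cell. At 2000 UMIs per cell, Ctsg was still detected in 47.9% of the Tcrg-C1- and Prg3-led cells, Prtn3 in 48.3%, Elane in 25.1% and Mpo in 23.9%.

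**Figure D3:**
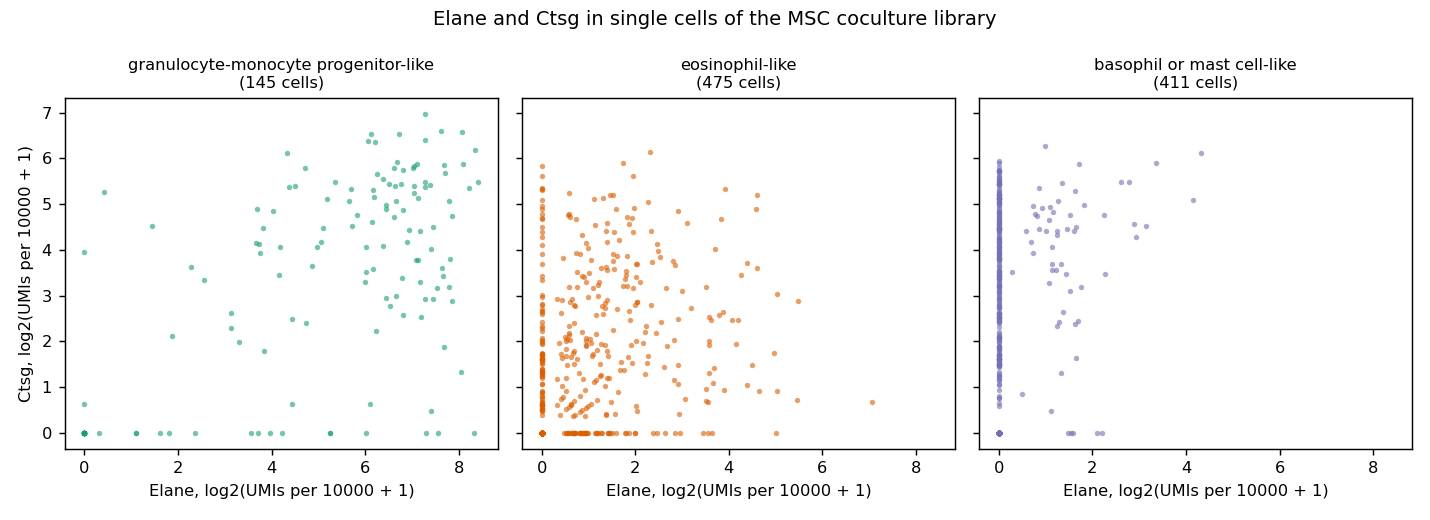
Elane against Ctsg in single MSC coculture cells of 3 classes, each axis log2 of UMIs per 10000 plus 1, 1 point per cell. Cells with Ctsg and no Elane line the left edge in the basophil or mast cell-like panel (224 of 411 cells) and are rare in the progenitor-like panel (2 of 145).

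Prtn3 made up most of the UMIs of the 4 genes in further MSC coculture cells. In the unnamed Arg1- and Cxcl3-led cluster of 510 cells Prtn3 was at 182 CPM (172 to 194) and was detected in 281 cells (55.1%), with Elane at 9.24, Ctsg at 4.28 and Mpo at 0.685 CPM. In 256 of these cells it was the only member detected, and it made up 92.8% of the UMIs of the 4 genes. The 120 megakaryocyte or platelet-like cells had Prtn3 at 61.9 CPM, detected in 64 cells (53.3%), and Mpo in 0 of 120 cells, for which 3 counts of the total allow a share of up to 2.50% of cells with a UMI (exact upper limit 3.03%). Thinned to 2000 UMIs, the Prtn3 shares were 25.1% of the Arg1- and Cxcl3-led cells and 16.0% of the megakaryocyte or platelet-like cells.

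Cells that should lack these genes give a guide to the level set by RNA free in the droplets. In the 877 B cell-like cells of the MSC coculture, Ctsg was at 8.46 CPM, Prtn3 at 6.35, Elane at 3.32 and Mpo at 1.21 CPM, and each gene was detected in 0.456% to 1.71% of cells, at a median of 2851 UMIs. Of the B cell-like UMIs, 10 of 28 for Ctsg and 7 of 21 for Prtn3 sat in 1 cell each. In the 97 T or NK cell-like cells, which had a median of 1910 UMIs, Elane and Prtn3 had 1 UMI each and Mpo and Ctsg had 0. In CPM, the B cell-like levels were at or above those of Elane and Ctsg in the megakaryocyte or platelet-like cells (1.96 and 1.18 CPM). Mpo and Ctsg in the Arg1- and Cxcl3-led cells were under them too. Elane there (9.24 CPM; 6.94 to 12.1) was above its B cell-like level (1.66 to 5.95) by more than the intervals. Both clusters were deeper (medians 19738 and 8692.5 UMIs), and a given number of free UMIs makes a lower CPM in a deeper cell. For these lower values, the order by share of cells with a UMI was the reverse. Elane was in 4.17% and Ctsg in 2.50% of megakaryocyte or platelet-like cells, against 1.25% each in B cell-like cells. Ctsg was in 2.35% and Mpo in 0.784% of Arg1- and Cxcl3-led cells, against 1.25% and 0.456%. Whether these UMIs are background was not tested. The Prtn3 levels of both clusters were above the B cell-like level by more than their intervals.

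The neutrophil-like cells led by Ltf and Camp, which carry secondary granule genes, kept Elane and Prtn3 but almost no Mpo. The 27 MSC coculture cells of this cluster had Prtn3 at 1699 CPM, Elane at 1376, Ctsg at 60.4 and Mpo at 4.31 CPM (1 UMI). The 114 cells without coculture had Prtn3 at 403 CPM, Elane at 128, Ctsg at 18.3 CPM and Mpo at 0 UMIs. In the MSC coculture cells 1 cell held 182 of the 319 Elane UMIs (57.1%). The log2 ratio of MSC coculture over no coculture within the cluster was 3.42 (3.16 to 3.69) for Elane, 2.08 (1.89 to 2.26) for Prtn3 and 1.72 (0.68 to 2.70) for Ctsg, while 10.5% of the 2227 genes at 50 CPM or more there were higher by 2-fold or more. Among all 771 neutrophil-like cells without coculture, Elane was found in 20, Prtn3 in 102 and Mpo in 0. For Mpo 3 counts of the total allow a share of up to 0.389% of cells with a UMI (exact upper limit 0.477%), at a median depth of 5123 UMIs.

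In the 568 macrophage-like cells without coculture, the cell with most UMIs of a gene held from 26.9% (Prtn3) to 82.4% (Ctsg) of them. Prtn3 was at 36.1 CPM and detected in 123 cells (21.7%; 3.74% at 2000 UMIs), with 174 of its 648 UMIs in 1 cell. Elane was at 15.4 CPM, with 105 of 277 UMIs in 1 cell, and Ctsg at 4.74 CPM, with 70 of 85 UMIs in 1 cell. Mpo was at 0.891 CPM, in 4 cells.

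**Figure D4:**
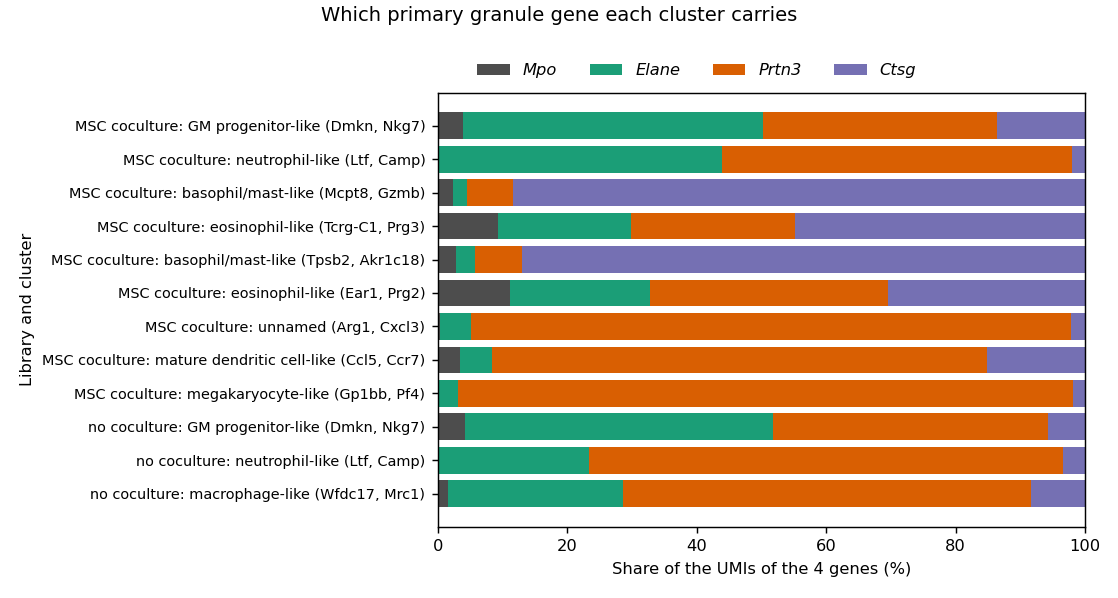
Share of each gene in the summed UMIs of the 4 genes (percent, bars add to 100), in each library and cluster with at least 100 such UMIs, MSC coculture above. Elane and Prtn3 fill most of the progenitor-like and Ltf-led bars, Ctsg most of the basophil or mast cell-like bars (88.4% and 87.1%), and Prtn3 most of the Arg1-led bar (92.8%).

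Setting progenitor-like cells against each other compares like-named cells of both groups. The summed levels of all 4 genes were higher in the 145 MSC coculture cells than in the 31 cells without coculture. Of the 3017 genes at 50 CPM or more in this cluster, 15.6% were higher by 2-fold or more, with a median log2 ratio of 0.28. Ctsg was at 2300 CPM in MSC coculture progenitor-like cells and 349 CPM in those without coculture, a log2 ratio of 2.72 (2.56 to 2.89). Elane was at 7894 CPM in MSC coculture cells and 2942 CPM in cells without coculture, a log2 ratio of 1.42 (1.37 to 1.48). Prtn3 was at 6170 CPM in the MSC coculture cells and 2622 CPM in the cells without coculture, a log2 ratio of 1.23 (1.17 to 1.30). By these ratios Ctsg had the widest gap of the 4 inside the cluster as well as over the whole libraries. Inside the cluster, Ctsg (3.09) and Mpo (3.08) were nearly equal without the cell of most UMIs of the gene in each library.

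Mpo was at 649 CPM in MSC coculture progenitor-like cells and 253 CPM in those without coculture, a log2 ratio of 1.36 (1.15 to 1.57). It was detected in 108 of the 145 MSC coculture cells and in 4 of the 31 cells without coculture (12.9%; 3.63 to 29.8), although the cells without coculture were deeper, with a median of 27883 UMIs. Without the cell of most Mpo UMIs in each library, the levels were 605 CPM in MSC coculture cells and 71.7 CPM in cells without coculture, a log2 ratio of 3.08 (2.71 to 3.47). The same step gave 3.09 for Ctsg, 1.60 for Elane and 1.27 for Prtn3. For the other 3 genes the shares of cells with a UMI were close at full depth, which differed between the groups. Elane was in 84.8% of MSC coculture cells and 90.3% of cells without coculture, Prtn3 in 99.3% and 100%, and Ctsg in 75.2% and 71.0%. Thinned to 2000 UMIs per cell, Ctsg was in 69.7% of MSC coculture cells and 29.0% of cells without coculture. Elane was then in 75.9% and 64.5%, and Prtn3 in 93.1% and 83.9%, in the same group order. At full depth, all 4 genes were found together in 97 MSC coculture cells (66.9%) and in 4 cells without coculture (12.9%). These 4 cells are all the progenitor-like cells without coculture that had an Mpo UMI.

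Single progenitor-like cells ranged widely in both libraries. Elane had a lowest, median and highest level of 0, 65.6 and 341 UMIs per 10000 in MSC coculture cells, against 0, 15.1 and 122 in cells without coculture. Prtn3 had 0, 56.9 and 231 in MSC coculture cells, against 0.771, 19.7 and 73.2 in cells without coculture. Ctsg had 0, 12.7 and 125 in MSC coculture cells, against 0, 0.450 and 24.0 in cells without coculture. The ranges overlapped for the 3 genes, and for Mpo the median was 2.97 in MSC coculture cells and 0 in cells without coculture.

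The progenitor-like cells of the 2 groups also differed in the genes that follow primary granules in granulocyte development. The 13 neutrophil markers summed to 15540 CPM in MSC coculture cells (11 of 13 with a UMI) and 128767 CPM in cells without coculture (13 of 13). The 10 progenitor markers summed to 3154 CPM in MSC coculture cells and 1412 CPM in cells without coculture, with 10 of 10 detected in both. Of the secondary and tertiary granule genes, 9 passed 50 CPM in the cluster and 9 were lower in MSC coculture cells by 2-fold or more, a direction that 6.07% of all genes there took. Chil3, a chitinase-like protein, was at 3.89 CPM in MSC coculture cells and 12460 CPM in cells without coculture. Ltf, the gene of lactoferrin, was at 26.5 CPM in MSC coculture cells and 429 CPM in cells without coculture. Ngp, a neutrophil granule protein, was at 4139 CPM in MSC coculture cells and 11712 CPM in cells without coculture. Of 8 progenitor genes that passed 50 CPM there, 5 were higher in MSC coculture cells by 2-fold or more and 0 were lower. Of all genes there, 15.6% were higher. Cd34, a stem and progenitor cell surface protein, was at 65.1 CPM in MSC coculture cells and 1.15 CPM (1 UMI) in cells without coculture. Clec12a (389 and 606 CPM) and Kit (13.4 and 20.6 CPM, under the floor) were lower in the MSC coculture cells. Eosinophil markers summed to 1681 CPM in MSC coculture cells and 17.2 CPM in cells without coculture, and basophil or mast cell markers to 390 CPM in MSC coculture cells and 18.4 CPM in cells without coculture. In the Ighd-led and Shisa8-led B cell-like clusters of the MSC coculture, eosinophil markers summed to 176 and 436 CPM. Basophil or mast cell markers summed to 32.6 and 431 CPM there, so 390 CPM is not particular to the progenitor-like cells. The part of free RNA in these sums was not tested. The part of the differences between the groups in the ratios of the 4 genes was not tested.

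**Figure D5:**
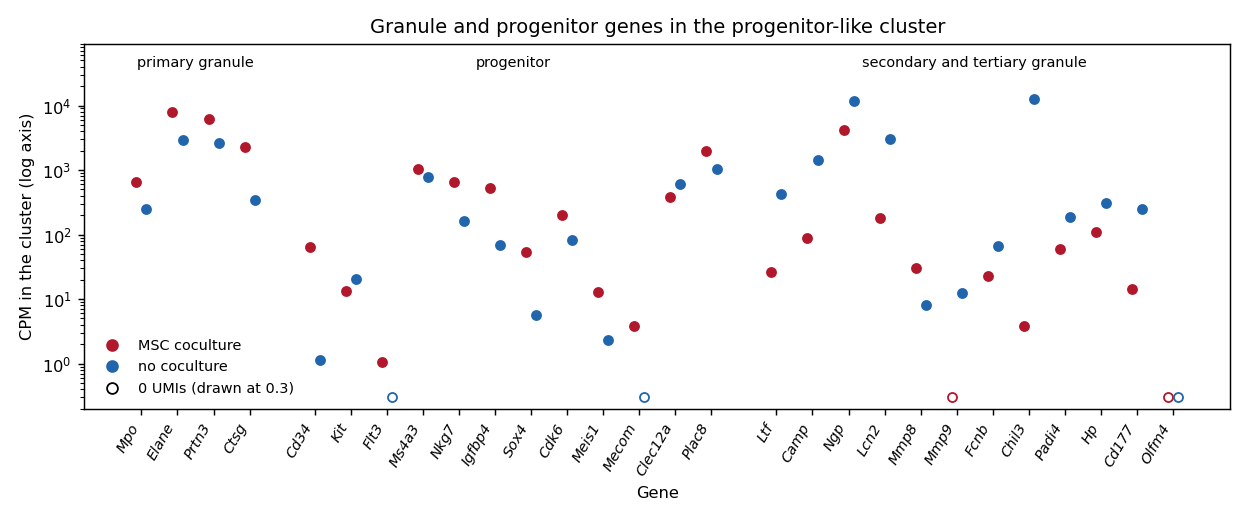
CPM (log axis) of primary granule, progenitor and secondary or tertiary granule genes in the progenitor-like cluster, 145 MSC coculture cells and 31 no coculture cells, with open points at 0 UMIs. The 4 primary granule genes are higher in MSC coculture cells, while most secondary granule genes are higher in cells without coculture, with Chil3 at 3.89 CPM in MSC coculture and 12460 CPM without coculture.

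Across the 3005 MSC coculture cells the 4 genes varied together, most closely Elane and Prtn3. Pearson correlations of log levels were 0.78 for Elane and Prtn3, 0.69 for Mpo and Elane, 0.63 for Mpo and Prtn3, 0.60 for Mpo and Ctsg, 0.52 for Elane and Ctsg, and 0.47 for Prtn3 and Ctsg. These are over cells of 1 library, which share its free RNA and differ in depth and class. Inside the 145 MSC coculture progenitor-like cells, Elane and Prtn3 stood at 0.83 and Ctsg with Mpo at 0.62. Spearman correlations with a cell's total UMIs there were 0.17 for Mpo, 0.02 for Elane, -0.04 for Prtn3 and 0.29 for Ctsg.

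Among these 145 cells the gene lists differed in sign with Elane. Of the 8 activation and packaging genes, 4 had a positive and 4 a negative Spearman correlation with Elane, from -0.25 (Calr) to 0.75 (Srgn), and of 8 progenitor genes measured 3 were positive and 5 negative. Of the 12 secondary and tertiary granule genes, the 4 detected in enough of these cells were all positive, from 0.09 to 0.63. The share of all genes with a positive correlation with Elane was not computed, so these counts have no background beside them. The correlation was 0.75 with Srgn (serglycin, the proteoglycan core to which granule proteases bind), 0.64 with Prss57, 0.63 with Ngp and 0.54 with Cebpe, a transcription factor of later granulocyte development. It was -0.59 with Cd34 and -0.49 with Gata2, a transcription factor of stem, mast cell and basophil lineages. Of the listed genes, Ctsg and Mpo ran closest to Ms4a3, a marker of granulocyte-monocyte progenitors, at 0.64 and 0.60, and Ctsg was at 0.02 and Mpo at 0.07 with Ngp. The single genes named here were picked for their values.

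Over 12727 genes, those whose pattern across the 3005 MSC coculture cells was most like the mean of the 4 were Ms4a3 (Pearson r 0.73), Myl10 (0.68), Dmkn (0.67), Nkg7 (0.63), Prss57 (0.63) and Ramp1 (0.62). In the 1817 cells without coculture r was 0.85 for Ms4a3 and 0.72 for Prss57, but 0.04 for Ramp1. Taken by itself, which was looked at after the values were known, Ctsg was most like Cyp11a1 (0.66), Mcpt8 (0.63), Ms4a3 (0.61) and Cst7 (0.58), with Cpa3 seventh (0.54) and Prss34 eighth (0.52). Cpa3, Mcpt8 and Prss34 encode proteases of mast cells or basophils.

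The genes listed as neighbours of Elane, Prtn3 and Ctsg behaved unevenly. Prss57 encodes a further neutrophil serine protease and was listed as a neighbour of Prtn3 and Elane. It was at 129 CPM in MSC coculture cells and 7.52 CPM in cells without coculture, a log2 ratio of 4.10, and stood at 355, 340 and 313 CPM in the MSC coculture progenitor-like, Ear1-led and Tcrg-C1-led cells. Of the 4 listed neighbours of Elane and Prtn3 that passed 10 CPM, 1 was higher (Prss57) and 3 were between, with Med16 at 0.11 and R3hdm4 at -0.20. Of the proteases that share the Ctsg locus, 2 passed, Mcpt8 and Gzmb, and both had UMIs only in the MSC coculture library. Mcpt8 was at 1133 CPM in MSC coculture cells and had 0 UMIs in cells without coculture. With a floor of 3 UMIs in place of the 0, it was 10493-fold higher (log2 ratio 13.36, lower limit 13.06). By cluster it stood at 8343 and 7225 CPM in the Tpsb2-led and Gzmb-led cells but at 152 CPM in the progenitor-like cells, where Ctsg had its highest level.

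Other contents of primary granules were mostly lower in MSC coculture cells over the whole libraries, but within the progenitor-like cluster most were between. Of 6 such genes that passed, 1 was higher in MSC coculture cells (Prss57), 4 were lower and 1 was between, with a median log2 ratio of -1.02. Within the progenitor-like cluster the same 6 genes had 1 higher, 1 lower and 4 between, with a median of 0.21. Lyz2, lysozyme, which monocytes and macrophages also make, was at 672 CPM in MSC coculture cells and 24944 CPM in cells without coculture. It was also the 1 lower gene within the cluster, at 48.8 CPM in MSC coculture cells and 1090 CPM in cells without coculture (log2 ratio -4.48). Ctsd, a lysosomal protease found in most cells, had a log2 ratio of -2.31 over all cells and 0.22 in the cluster. Epx, the eosinophil peroxidase related to Mpo, was at 3299 CPM in MSC coculture cells and had 0 UMIs in cells without coculture. It stood at 15986 and 9469 CPM in the Ear1-led and Tcrg-C1-led eosinophil-like cells and 140 CPM in the progenitor-like cells, the reverse of Mpo.

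Genes that activate, pack or restrain the granule proteases were mixed. Of 8 activation and packaging genes, 3 were higher, 1 was lower and 4 were between, with a median log2 ratio of 0.25. Srgn was at 3731 CPM in MSC coculture cells and 432 CPM in cells without coculture (3.11), and the chaperones Calr and Hspa5 had ratios of 1.85 and 1.45. Ctsc, the peptidase that trims these proteases to their active form, went the other way, at 174 CPM in MSC coculture cells and 526 CPM in cells without coculture (-1.59). In the progenitor-like cluster, Srgn was at 5855 CPM in MSC coculture cells and 606 CPM in cells without coculture. Of 7 protease inhibitors, 4 were higher, 1 was lower and 2 were between, with a median of 1.46. Slpi, an inhibitor of elastase and cathepsin G, had a ratio of 1.46, and Serpina3g a ratio of 6.51.

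Of 7 heme synthesis genes, which supply the cofactor of myeloperoxidase, 1 was higher (Alad, 1.14) and 6 were between. Under TMM scaling, which lowers every log2 ratio by 0.14, Alad too was between. Of 12 transcription factors of the lineage, 5 were higher, 4 were lower and 3 were between, with a median of -0.42. Gata2 (7.03), Myb (4.07) and Cebpe (2.58) were higher in MSC coculture cells, and Klf4 (-4.33), a monocyte and macrophage factor, was lower. Irf8 (1.09) was among the 5, and was between under TMM scaling. Of 10 progenitor genes, 7 were higher, 1 was lower and 2 were between, with a median of 3.22. Cd34 had a ratio of 7.01 and Kit, the stem cell factor receptor, a ratio of -1.67. Of the MSC coculture Cd34 UMIs, 81.1% were in the megakaryocyte or platelet-like cells and 7.56% in the progenitor-like cells. The 10 measured secondary and tertiary granule genes had 0 higher, 9 lower and 1 between, with a median of -1.72. Of 6 NADPH oxidase subunits, whose product feeds myeloperoxidase, 0 were higher, 1 was lower (Cybb, -3.29; 2 under TMM scaling) and 5 were between. Of 10 division genes, 8 were higher over all cells (7 under TMM scaling) with a median of 1.68, while within the progenitor-like cluster the median was -0.55, with 0 higher and 1 lower. The shares over all measured genes, 12.7% higher and 11.7% lower, apply to the counts over all cells without TMM scaling. Under TMM scaling 930 of the 8668 measured genes were higher and 1251 lower. Within the progenitor-like cluster the shares over its 3017 measured genes were 15.6% higher and 6.07% lower.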

How the data were processed

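Droplet-based 3′ single-cell RNA libraries were made with a 10x kit, 1 per group, per the labels' protocols. The values deposited by the authors are raw UMI counts of each gene in each barcode. They used Cell Ranger and bcl2fastq with build mm10, per the submitters' processing notes, in software version 3.1.0, per the file headers. The rule separating cells from empty droplets is not given in the sources used here.

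Barcodes under 500 genes or over 10% mitochondrial UMIs were dropped. Both libraries were clustered jointly with scanpy 1.11.5 (2000 variable genes without the 4 members, 30 principal components, 15 neighbours, Leiden resolution 0.8). Each cluster was matched to its best-scoring marker list. It took that name when at least 3 of the list's markers reached 20 CPM and were 2-fold or more above the remaining cells. Its 10 leading genes also had to hold more markers of that class than of any other, so names are rebuilt here. CPM, exact intervals (scipy 1.17.1) and ratios were computed from summed counts, with a floor of 3 UMIs for a 0. TMM factors came from edgeR 4.0.16. Ratio code was checked on simulated counts. With 1 library per group no test was run. Genes at 10 CPM or more in either library (50 CPM within a cluster) were called higher or lower at 2-fold. Genes named are members, genes of 12 lists and the genes most like the mean of the 4, with other choices marked. The members and lists were chosen with earlier results of these data known.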

Additional observations from a re-analysis of the deposited data

How the results depend on the processing

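No ratio changed direction under any alternative run. Without the 5% of cells with most UMIs, the log2 ratios of MSC coculture over no coculture were 3.129 for Mpo, 2.779 for Elane, 2.486 for Prtn3 and 4.986 for Ctsg. Without the progenitor-like cluster they were 6.234 (5.549 to 7.019), 2.653, 1.989 and 6.474 (6.205 to 6.755) in the same gene order. Few UMIs of Mpo and Ctsg were then left without coculture, as the cluster held 221 of 238 and 304 of 416. Of the Ctsg UMIs left, 70 were in 1 macrophage-like cell. Without the 1 cell of each library with most UMIs of the gene, a setting chosen after seeing the data, they were 5.185, 3.17, 2.64 and 5.522. TMM scaling gave 2.845 for Elane, 2.428 for Prtn3 and 5.076 for Ctsg, and moved the median of all measured genes to -0.11 from 0.03. The mean over cells gave 5.673 for Ctsg.

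The share of MSC coculture cells with any of the 4 genes was 50.38% under a stricter cell filter, 35.17% with at least 2 UMIs, 24.13% with at least 5 UMIs (also chosen after seeing the data), 33.21% thinned to 2000 UMIs and 24.29% thinned to 1000. In cells without coculture it was 14.86% over all deposited barcodes, 8.476% with at least 2 UMIs, 4.293% with at least 5, 5.963% thinned to 2000 and 4.02% thinned to 1000.

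With the 4 genes among the clustered genes, the progenitor-like cluster had 104 MSC coculture cells and 30 cells without coculture, and held 57.62% of Mpo, 87.55% of Elane, 70.73% of Prtn3 and 36.53% of Ctsg UMIs of the MSC coculture library. Genes higher by 2-fold numbered 403 at a 50 CPM minimum and 3824 at a 10 UMI minimum, and genes lower numbered 513 and 1898. The causes were not tested. No paired analysis was possible because each group is 1 library.

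Mpo without coculture rests on 9 cells with a UMI. The intervals cover counting error only, the class names are rebuilt, and doublets and free RNA were not removed.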

Other observations

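Barcodes left out by the rule on detected genes and mitochondrial UMIs also carried these genes. Elane was at 141 CPM (18 UMIs) over the 129 such MSC coculture barcodes and 208 CPM (106 UMIs) over the 363 such barcodes without coculture. Ctsg was at 31.3 CPM (4 UMIs) in the MSC coculture ones and 82.5 CPM (42 UMIs) in those without coculture. Mpo was at 23.4 CPM (3 UMIs) in the MSC coculture ones and 45.2 CPM (23 UMIs) in those without coculture. Prtn3 was at 133 CPM (17 UMIs) in the MSC coculture ones and 55.0 CPM (28 UMIs) in those without coculture, the opposite order to the other 3 genes. For Elane, Ctsg and Mpo the left-out barcodes without coculture were above the kept cells without coculture, while for Prtn3 they were below (55.0 against 132 CPM). For all 4 genes the left-out MSC coculture barcodes were below the kept MSC coculture cells.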
